A study of Homo sapiens with 2 samples.

Results

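Lipocalin 2 (LCN2), BIRC3 and 6 further NF-kB response genes were listed with lower values in the RNA that coprecipitated with an IMP1 antibody than in the RNA that coprecipitated with control IgG, from 421-fold lower for LCN2 to 2.25-fold lower for NFKB2. The genes were chosen by name, as 10 members of the NF-kB response, and 8 of them were present among the 18781 genes of the deposited table. CXCL1 and CCL20, both chemokines, had no row and were not analysed here. The choice of these genes rested on the same contrast, so their values are given as a description and without a test.

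The study asked which RNAs associate with IMP1, an RNA-binding protein, in T47D cells. T47D is an established luminal breast cancer line, labelled wild type in both arms, and the labels name no cytokine or other agent added to either culture. Lysate was mixed with IMP1 antibody and protein A beads, and the RNA held on the beads was sequenced. The other arm is labelled as an IgG control, and its handling is not described further. Whether both arms came from the same lysate or culture is not stated. There was 1 library per arm, so that no difference has a replicate check, and the values are FPKM (fragments per kilobase of transcript, scaled to the mapped fragments of a library), which do not show how deeply either library was sequenced. An input library was not analysed here, and in such bulk precipitates a smaller number of cells that carry a transcript cannot be told apart from less of it per cell.

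NF-kB is a family of transcription factors that wait in the cytoplasm, held by inhibitor proteins of the IkB family. Ligands such as tumour necrosis factor, acting through receptors, adaptors and the IKK kinases, lead to the destruction of the inhibitor, and the freed factors enter the nucleus and bind short kB sites near their target genes. The targets include chemokines, adhesion molecules, survival factors, secreted defence proteins and the inhibitors themselves, which shut the response off again. In epithelial cells, LCN2 is a well known secreted product of this response.

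Because kB sites are the feature that defines the pathway, the promoters of the genes were read first. RefSeq promoter windows (GRCh38.p14, 250 bases before to 50 bases after each transcription start) were found for all 8 genes, 13 windows in total. A match to the 10-letter NF-kB consensus, searched on both strands and allowed to overlap, was present in at least 1 window of 5 of the 8 genes, and in 6 of the 13 windows. Of all 35116 windows of the same length, 11.3% held a match, and of the 10925 genes of the deposited table that were matched by symbol, 17.1% held a match in any window. A match describes the letters only and is not evidence of binding. The 8 genes were chosen as members of the NF-kB response, so their share is not independent of that choice.

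The sequences upstream of the start are shown for the genes that held a match, since these are the genes whose promoter letters the comparison above counts. Each runs 5′ to 3′ on the strand of the gene, and the capitals mark the matches. For LCN2 (chr9:128149203-128149452, plus strand) and BIRC3 (chr11:102317234-102317483, plus strand) the 250 bases before the start are given. For NFKBIA (chr14:35404781-35404870, minus strand) and TNFAIP3 (chr6:137867152-137867253, plus strand) the matches are given with up to 40 bases on each side. For NFKB2 (chr10:102394462-102394491, plus strand) 30 bases are given, because this window lies downstream of another annotated start of the gene.
LCN2: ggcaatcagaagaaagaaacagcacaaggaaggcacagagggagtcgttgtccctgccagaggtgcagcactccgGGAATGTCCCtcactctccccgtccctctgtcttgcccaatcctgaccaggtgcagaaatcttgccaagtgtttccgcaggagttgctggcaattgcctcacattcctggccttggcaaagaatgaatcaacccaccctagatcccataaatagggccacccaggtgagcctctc
BIRC3: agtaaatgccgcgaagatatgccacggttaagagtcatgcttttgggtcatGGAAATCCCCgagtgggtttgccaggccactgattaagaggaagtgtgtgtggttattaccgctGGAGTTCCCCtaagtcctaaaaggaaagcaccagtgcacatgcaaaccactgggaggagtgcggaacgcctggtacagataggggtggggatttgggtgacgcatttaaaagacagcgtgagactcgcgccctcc
NFKBIA: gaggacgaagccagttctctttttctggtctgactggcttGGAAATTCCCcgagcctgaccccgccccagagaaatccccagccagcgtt
TNFAIP3: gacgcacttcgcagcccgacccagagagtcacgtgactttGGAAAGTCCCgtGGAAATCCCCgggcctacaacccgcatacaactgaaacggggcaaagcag
NFKB2: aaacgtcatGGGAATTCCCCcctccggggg

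The LCN2 match began 175 bases before the start, and the 2 BIRC3 matches began 199 and 135 bases before it. The matches of NFKBIA (81 bases before the start) and TNFAIP3 (67 and 55 bases before it) lay closer to the start. NFKB2 had matches in 2 of its 3 windows. The stretch shown holds overlapping matches that began 107 and 106 bases before the start. A further match of that window began 78 bases before the start, and those of the other window began 176 and 21 bases before its start. These further matches are not shown. TNFAIP2, ICAM1 and SOD2, whose windows numbered 1, 1 and 4, held none, which says only that these letters were not in these windows. The 5 genes with a match included both the genes with the widest gap between the libraries, LCN2 and BIRC3, and those with the narrowest, NFKB2, TNFAIP3 and NFKBIA.

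**Figure D1:**
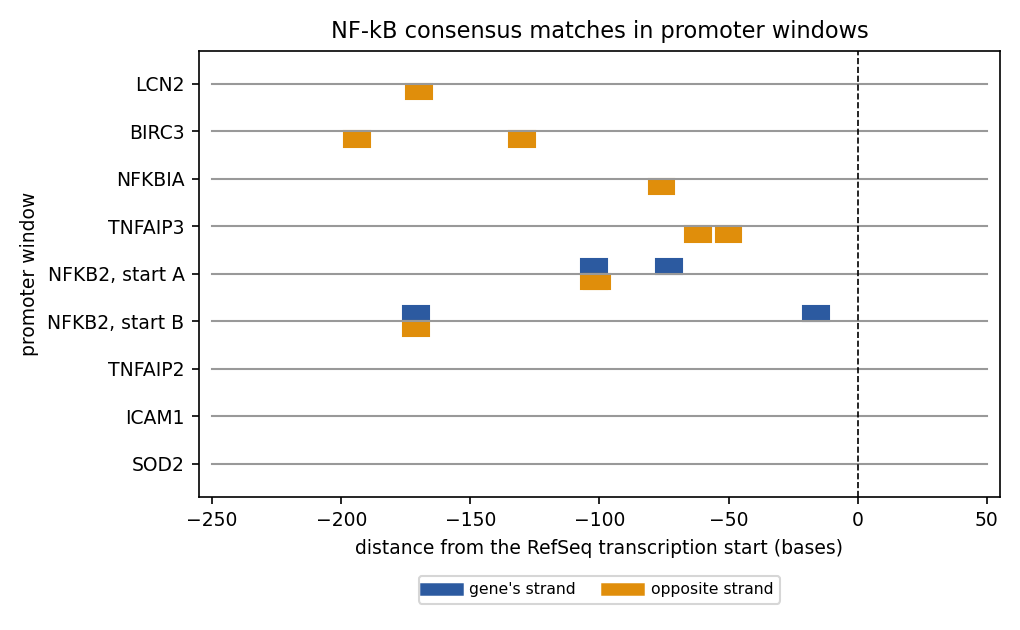
Position of NF-kB consensus matches (boxes) in the RefSeq promoter windows of the 8 genes, as distance in bases from the transcription start on the horizontal axis, with boxes above the line on the strand of the gene and boxes below it on the opposite strand. NFKB2 is drawn for the 2 of its 3 windows that held a match, and genes without a match are drawn as 1 empty line. All matches drawn lie upstream of the start, the farthest at 199 bases in BIRC3.

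LCN2, a secreted protein that binds bacterial siderophores and so withholds iron, had the widest gap of the 8 genes. LCN2 (ENSG00000148346, chromosome 9 from 130911350 to 130915734 on hg19, the build named in the labels) had 746 FPKM in the IgG library and 1.77 FPKM in the IMP1 precipitate. It held place 54 of 18781 genes in the IgG precipitate and place 7727 in the IMP1 precipitate. Ratios are given below as log2 of IMP1 over IgG after 0.1 FPKM was added to both values, and on this scale LCN2 was at -8.64, and 24 genes of the table were lower. This scale understates the change of low genes.

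BIRC3 (ENSG00000023445, chromosome 11 from 102188215 to 102210134), an inhibitor of apoptosis and ubiquitin ligase of the tumour necrosis factor receptor complex, had 147 FPKM in the IgG precipitate and 1.08 FPKM in the IMP1 precipitate. The IgG value was 137 times the IMP1 value, and the log2 ratio was -6.97. BIRC3 held place 220 in the IgG precipitate and place 9572 in the IMP1 precipitate. No other gene shared the deposited locus of LCN2 or of BIRC3.

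The effectors at the cell surface and in the mitochondrion came next. ICAM1, an adhesion molecule that leukocyte integrins bind, had 37.0 FPKM in the IgG precipitate and 1.84 FPKM in the IMP1 precipitate, a log2 ratio of -4.25. SOD2, the manganese superoxide dismutase of mitochondria, had 85.0 FPKM in the IgG precipitate and 5.36 FPKM in the IMP1 precipitate, a log2 ratio of -3.96. TNFAIP2, a cytoplasmic protein named for its induction by tumour necrosis factor, had 22.2 FPKM in the IgG precipitate and 3.59 FPKM in the IMP1 precipitate, a log2 ratio of -2.59. Thus the IgG value was 20.1 times the IMP1 value for ICAM1, 15.9 times for SOD2 and 6.18 times for TNFAIP2.

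Apart from BIRC3, the ubiquitin ligase described above, the regulators of the pathway itself had the narrowest gaps. NFKBIA encodes IkB alpha, the inhibitor that is destroyed on activation and made anew by the response, and it had 97.8 FPKM in the IgG precipitate and 23.9 FPKM in the IMP1 precipitate, a log2 ratio of -2.03. TNFAIP3 encodes A20, an enzyme that edits ubiquitin chains and ends the signal, and it had 2.31 FPKM in the IgG precipitate and 0.510 FPKM in the IMP1 precipitate, a log2 ratio of -1.98. NFKB2 encodes p100, the precursor of the p52 subunit, and it had 7.14 FPKM in the IgG precipitate and 3.17 FPKM in the IMP1 precipitate, a log2 ratio of -1.15. The IgG value was higher for each of these 3 genes as deposited, but for NFKB2 the direction turned when both libraries were set to the same FPKM sum, a log2 shift of 1.88, which gave 0.70. Of the genes named below as lower in the IMP1 precipitate or between the limits, IER3, RBCK1, SHARPIN, TAB2, RELA, BIRC2, SOD1, C9orf16 and TCP1 also turned on that scale. NFKB2 did not turn on smaller rescalings. It was at -0.37 after rescaling to a median ratio of 1, and at -0.59 with the same sum without the 50 highest genes.

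On hg19 the deposited positions were chromosome 14 from 35870717 to 35873955 for NFKBIA (ENSG00000100906), chromosome 6 from 138144810 to 138204449 for TNFAIP3 (ENSG00000118503), chromosome 10 from 104153867 to 104162281 for NFKB2 (ENSG00000077150) and chromosome 14 from 103589779 to 103603776 for TNFAIP2 (ENSG00000185215). ICAM1 (ENSG00000090339) and SOD2 (ENSG00000112096) are treated with the loci they share with other genes.

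**Figure D2:**
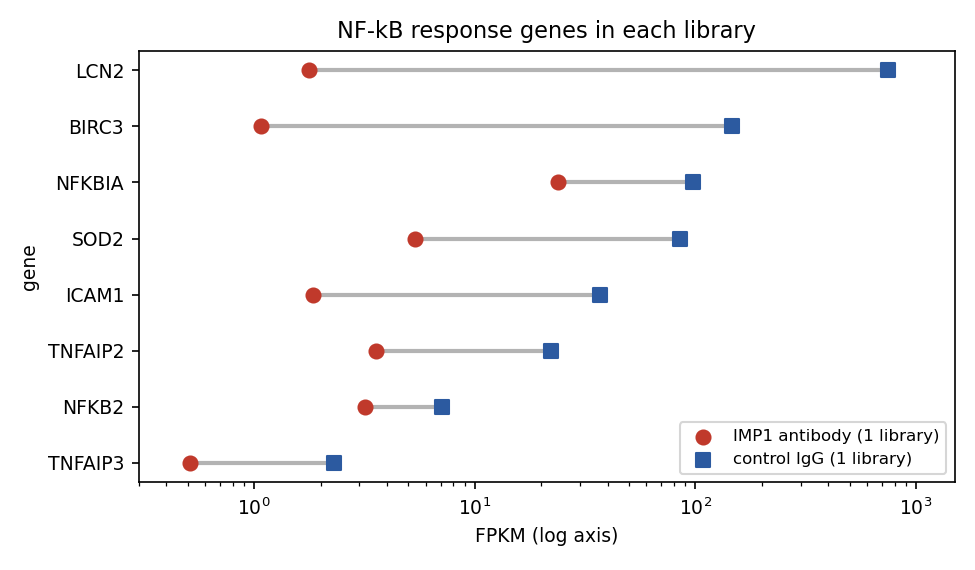
FPKM of the 8 genes (log axis) in the IMP1 antibody library (circles) and the control IgG library (squares), 1 library each, ordered by the IgG value. Every circle lies left of its square, and the line between them runs from 1.77 to 746 FPKM for LCN2 and from 3.17 to 7.14 FPKM for NFKB2.

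The order of levels within a library does not depend on how the libraries are scaled against each other, and it differed between them. With IgG, LCN2 was the highest of the 8 genes and BIRC3 held place 2, followed by NFKBIA, SOD2, ICAM1, TNFAIP2, NFKB2 and TNFAIP3. In the IMP1 library NFKBIA was the highest and was followed by SOD2, TNFAIP2, NFKB2, ICAM1, LCN2, BIRC3 and TNFAIP3, so that LCN2 held place 6 and BIRC3 place 7. Relative to NFKBIA, the level of LCN2 was 7.63 in the IgG precipitate and 0.0740 in the IMP1 precipitate, and that of BIRC3 was 1.50 and 0.0449. The level of TNFAIP3 relative to NFKBIA was 0.0236 in the IgG precipitate and 0.0213 in the IMP1 precipitate. LCN2 alone made up 65.2% of the summed FPKM of the 8 genes in the IgG precipitate, and NFKBIA alone made up 58.0% of it in the IMP1 precipitate. With 1 library each, whether neighbours in these orders differ beyond replicate spread could not be assessed.

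All 8 genes were at least 2-fold lower in the IMP1 precipitate and none was higher (39.9% of all genes were), with a median log2 ratio of -3.28. Over all 18781 genes 29.9% were at least 2-fold lower, and the median was 0.40. The 8 genes were all above 0 in both libraries. Of the 10047 such genes 44.6% were lower and 16.9% higher, with a median of -0.77. Of the 3720 genes with at least 10 FPKM in the IgG precipitate, 65.1% were at least 2-fold lower, with a median of -1.57. Of the 8 genes, 6 had at least 10 FPKM in the IgG precipitate, and all 6 were lower. With the same FPKM sum in both libraries, 4 of the 8 were still at least 2-fold lower (LCN2, BIRC3, ICAM1 and SOD2), while NFKBIA was at -0.15, TNFAIP3 at -0.29 and TNFAIP2 at -0.75. LCN2 was at -6.82 and BIRC3 at -5.18 on that scale. The share of all genes that were lower or higher on that scale was not computed, so counts on it have no background.

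**Figure D3:**
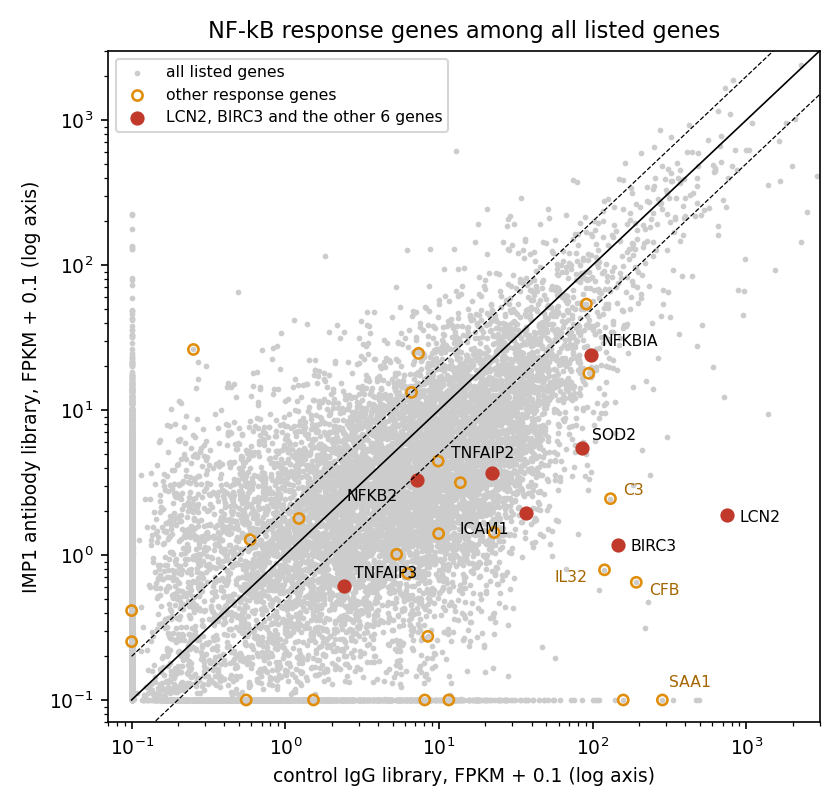
FPKM + 0.1 of all listed genes in the control IgG library (horizontal log axis) and the IMP1 antibody library (vertical log axis), without the few genes beyond the axis limits, with the 8 genes as filled points and the other NF-kB response genes as open circles. The solid line marks equal values and the dashed lines 2-fold differences, and LCN2 and BIRC3 lie at the lower right edge of the cloud, beside IL32, CFB and C3.

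The genes whose pattern over both libraries was most like that of LCN2 and BIRC3 were found by the Euclidean distance of log2(FPKM + 0.1), over only 2 libraries. For BIRC3 the nearest gene was IL32, a cytokine, at a distance of 0.65, with 119 FPKM in the IgG precipitate and 0.690 FPKM in the IMP1 precipitate. Next came the matrix protein FN1 (79.7 and 1.30 FPKM), the complement factors CFB (192 and 0.548 FPKM) and C3 (130 and 2.34 FPKM), and the interferon-induced IFIT3 (110 and 0.472 FPKM). LCN2 had no gene as close. Its nearest was the snoRNA host gene LINC00338 at a distance of 1.91 (235 and 3.48 FPKM), followed by IFIT1, CD74, the nuclear lncRNA NEAT1 and BIRC3 itself at 2.44.

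The place of LCN2 and BIRC3 among genes abundant in the IgG precipitate is given as a description, since it rests on the contrast that chose them. Of the 225 protein-coding genes with at least 100 FPKM in the IgG precipitate, 96 were at least 2-fold lower in the IMP1 precipitate. The 10 with the lowest log2 ratios were SAA1, SAA2, LCN2, CFB, IFIT3, IL32, BIRC3, IFIT1, IFI27 and C3, with LCN2 at place 3 and BIRC3 at place 7. SAA1 and SAA2, the acute phase serum amyloid A proteins, had 284 and 158 FPKM in the IgG precipitate and were listed at 0 in the IMP1 precipitate. Their coding sequences are near-identical, so the split of fragments between them is uncertain.

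A wider list of 42 further NF-kB response genes had 25 in the table. Of these, 17 were at least 2-fold lower in the IMP1 precipitate (68.0%, against 29.9% of all genes), 5 were at least 2-fold higher (20.0%, against 39.9% of all genes) and 3 lay between, with a median log2 ratio of -2.48. With the same FPKM sum in both libraries the split was 13 lower and 8 higher, without a share of all genes on that scale. Among those above 0 in both libraries, 11 of 17 were lower, against 44.6% of all genes above 0 in both.

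The acute phase and mucosal defence genes had the lowest median log2 ratio of the groups, -8.21. All 5 in the table were at least 2-fold lower (29.9% of all genes were). Besides SAA1, SAA2, CFB and C3, SERPINA3, a protease inhibitor, had 7.98 FPKM in the IgG precipitate and was listed at 0 in the IMP1 precipitate. Of the 5 chemokine and cytokine genes in the table, 3 were lower and 2 were higher (29.9% and 39.9% of all genes were). IL32 was lower, and the macrophage growth factor CSF1 (8.35 FPKM in the IgG precipitate and 0.175 FPKM in the IMP1 precipitate) and the chemokine CCL2 (6.15 and 0.646 FPKM) were lower too. CXCL16, a membrane-bound chemokine, went the other way, with 0.152 FPKM in the IgG precipitate and 26.0 FPKM in the IMP1 precipitate.

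Of the 5 survival genes listed, 2 were lower (29.9% of all genes were), 1 was higher (39.9% of all genes were) and 2 lay between. TNFAIP8 and GADD45B were lower, with log2 ratios of -2.82 and -1.15, and GADD45B turned with the same FPKM sum. BCL2L1, which encodes the anti-apoptotic BCL-XL, was higher in the IMP1 precipitate (24.4 FPKM, against 7.26 FPKM in the IgG precipitate), and IER3, an early response gene, had 53.7 and 90.8 FPKM, a log2 ratio of -0.76. Among adhesion and protease genes, the urokinase gene PLAU had 11.5 FPKM in the IgG precipitate and was listed at 0 in the IMP1 precipitate, and the syndecan SDC4 had 94.2 FPKM in the IgG precipitate and 17.8 FPKM in the IMP1 precipitate. Among regulators, the transcription factor IRF1 had 22.7 FPKM in the IgG precipitate and 1.33 FPKM in the IMP1 precipitate, and the kinase RIPK2 had 13.7 and 3.05 FPKM. The ephrin ligand EFNA1 had 6.52 FPKM in the IgG precipitate and 13.1 FPKM in the IMP1 precipitate, just inside the 2-fold limit.

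A consensus match was present in the promoter windows of 9 of the 16 other response genes with a window, or 56.2%, and of 12 of the 46 signalling components with a window, or 26.1%, against 17.1% of the genes of the table. The remaining genes of both lists had no window under their symbol and were not counted. The response genes were named as targets of a factor that binds kB sites, so their share is not independent of that choice. IL32, the gene nearest to BIRC3, held matches 99 and 98 bases before 1 of its 2 starts, in overlapping letters on opposite strands. CFB, also near BIRC3, held a match 112 bases before its start. The windows of FN1, C3 and IFIT3 were not read one by one, so no pattern over the nearest genes is given. The IL32 stretch is shown for comparison with the promoters above (GRCh38.p14, chr16:3065264-3065354, plus strand, capitals as before).
IL32: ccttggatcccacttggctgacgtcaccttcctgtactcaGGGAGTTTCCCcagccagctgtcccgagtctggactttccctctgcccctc

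The machinery that carries the signal did not share one direction. Of 63 signalling components, 55 were in the table, and 23 were at least 2-fold lower in the IMP1 precipitate (41.8%, against 29.9% of all genes), 18 were at least 2-fold higher (32.7%, against 39.9%) and 14 lay between. The split was 8 lower and 29 higher with the same FPKM sum in both libraries. That rescaling raises the ratio of every gene above 0 in the IMP1 precipitate. Without a share of all genes on that scale, this split is not a result about the components. For 13 of the 18 higher genes the IgG library listed 0, among them IRAK1 (4.79 FPKM in the IMP1 precipitate), IKBKB (4.36 FPKM) and CHUK (3.31 FPKM), which encode kinases of the pathway. Of all genes between 1 and 5 FPKM in the IMP1 precipitate, 29.6% were listed at 0 in the IgG precipitate, so a 0 at this level was common. Of the 36 components above 0 in both libraries, 21 were lower and 5 were higher, where 44.6% of the 10047 genes above 0 in both were lower and 16.9% were higher.

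Of 12 inhibitors of the pathway 9 were at least 2-fold lower as deposited. With the same FPKM sum 2 of these 9, CYLD and OTULIN, were still lower by that limit and 7 were not. Of these 7, N4BP1 and ZC3H12A turned. No share of all genes was computed on that scale. The 9 included TNIP1, a partner of A20, with 45.2 FPKM in the IgG precipitate and 7.15 FPKM in the IMP1 precipitate, and TAX1BP1, another partner of A20, with 33.4 and 5.20 FPKM. The deubiquitinases OTULIN, listed as FAM105B, and CYLD had 19.0 and 12.0 FPKM in the IgG precipitate and 1.76 and 1.26 FPKM in the IMP1 precipitate. BCL3, NFKBIB and NFKBID were higher, and the latter 2 were listed at 0 in the IgG precipitate.

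Among ligands, tumour necrosis factor itself (TNF) had 5.42 FPKM in the IgG precipitate and 0.722 FPKM in the IMP1 precipitate, and TNFSF10, the death ligand TRAIL, had 72.8 and 3.41 FPKM. The receptor TNFRSF1A was higher in the IMP1 precipitate (12.6 FPKM, against 4.25 FPKM in the IgG precipitate). Of the 11 receptors in the table, 3 were lower (27.3%, against 29.9% of all genes) and 5 were higher (45.5%, against 39.9%). Of these 5, 4 were listed at 0 in the IgG precipitate. Of the 13 adaptors, 5 were lower and 5 were higher (38.5% each). RBCK1, a subunit of the linear ubiquitin ligase, had 33.9 FPKM in the IgG precipitate and 10.3 FPKM in the IMP1 precipitate. TRAF6 had 11.9 and 1.87 FPKM, and SHARPIN lay between the limits at 18.5 and 10.7 FPKM. Of the 10 kinases, 2 were lower (20.0%) and 3 higher (30.0%). TBK1, a kinase related to the IKKs, was lower with 59.0 FPKM in the IgG precipitate and 1.60 FPKM in the IMP1 precipitate, and TAB2 lay between the limits at 15.0 and 8.45 FPKM.

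**Figure D4:**
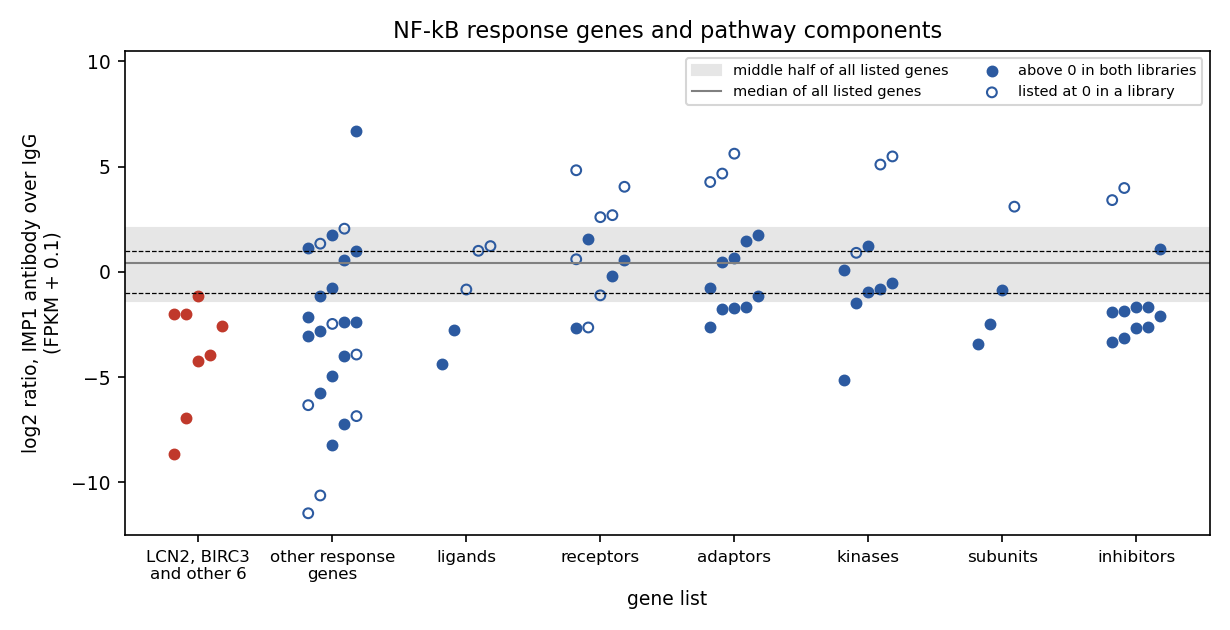
Log2 ratio of FPKM + 0.1, IMP1 antibody over control IgG, for each listed gene of the set with LCN2 and BIRC3, of the other response genes and of the signalling components by role. Filled points are above 0 in both libraries and open points are listed at 0 in a library, the grey band holds the middle 50% of all listed genes, and the dashed lines mark 2-fold. All 8 points of the first group lie below the lower dashed line, while receptors, adaptors and kinases spread to both sides.

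Of 28 relatives of the 8 genes in the same protein families 17 were in the table. Of these, 8 were at least 2-fold lower (47.1%, against 29.9% of all genes) and 5 at least 2-fold higher (29.4%, against 39.9%). BIRC2, the closest relative of BIRC3 and its neighbour on chromosome 11 at a distance of 7.81 kb, had 10.9 FPKM in the IgG precipitate and 4.88 FPKM in the IMP1 precipitate, a log2 ratio of -1.14 beside -6.97 for BIRC3. BIRC5 (survivin), which acts in mitosis, was higher in the IMP1 precipitate, with 17.9 FPKM against 8.33 FPKM in the IgG precipitate, while the giant BIRC6 had 1.13 FPKM against 42.2 FPKM. SOD1, the cytosolic superoxide dismutase, had 72.7 FPKM in the IgG precipitate and 45.3 FPKM in the IMP1 precipitate, a log2 ratio of -0.68 beside -3.96 for SOD2. SOD3, the extracellular enzyme, had 12.3 FPKM in the IMP1 precipitate and was listed at 0 in the IgG precipitate. ICAM3 was higher in the IMP1 precipitate, at 4.52 FPKM against 0.109 FPKM in the IgG precipitate.

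The other subunits of NF-kB were divided. NFKB1 had 7.22 FPKM in the IgG precipitate and 1.20 FPKM in the IMP1 precipitate, and REL had 3.67 and 0.253 FPKM. RELA, the most abundant subunit in both libraries, had 21.8 FPKM in the IgG precipitate and 11.8 FPKM in the IMP1 precipitate, a log2 ratio of -0.88. RELB was at 0.754 FPKM in the IMP1 precipitate and was listed at 0 in the IgG precipitate.

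The genomic neighbours of the 8 genes were close to the table as a whole in the share of lower genes and in the median, but fewer were higher. Of the 16 nearest genes in the table outside the deposited loci, 4 were at least 2-fold lower (29.9% of all genes were). At least 2-fold higher were 2 (39.9% of all genes were). The median log2 ratio of the 16 was 0.34, against 0.40 over all genes. RP11-561B11.1, INSM2, EXOC3L4 and FNDC1 had at most 0.0776 FPKM in the IMP1 precipitate and were listed at 0 in the IgG precipitate. CTD-2369P2.10 was listed at 0 in both. At these levels the added 0.1 FPKM largely sets the ratio and keeps it inside the 2-fold limit. The likeness of the medians therefore says little about these neighbours. PTGES2 and C9orf16, on either side of LCN2, had 9.46 and 13.6 FPKM in the IMP1 precipitate and 5.28 and 47.3 FPKM in the IgG precipitate. YAP1, on the other side of BIRC3 from BIRC2, had 12.9 and 8.71 FPKM.

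The deposited positions of ICAM1 (chromosome 19 from 10362577 to 10399695) and SOD2 (chromosome 6 from 160090089 to 160210781) are each given identically for several genes, 4 others for ICAM1 and 3 others for SOD2, so they describe a shared locus and not the gene. The genes that share the position of SOD2 went different ways. WTAP had 44.7 FPKM in the IgG precipitate and 3.45 FPKM in the IMP1 precipitate, TCP1 had 15.1 and 14.1 FPKM, and ACAT2 was listed at 0 in the IgG precipitate and had 6.85 FPKM. MRPL4, which shares the position of ICAM1, was higher in the IMP1 precipitate (10.4 FPKM, against 2.90 FPKM in the IgG precipitate). How fragments were assigned within these loci is not given in the sources used here.

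Markers of other cells and of the interferon response moved with the 8 genes, and their part in these values was not tested. Over all genes 29.9% were at least 2-fold lower in the IMP1 precipitate and 39.9% at least 2-fold higher. Of the genes with at least 10 FPKM in the IgG precipitate, 65.1% were lower. That level was reached by 10 of the interferon genes and 7 of the mesenchymal markers, all of them lower. Of 11 interferon response genes 10 were at least 2-fold lower in the IMP1 precipitate, and the summed FPKM of the 11 was 2342 in the IgG precipitate and 152 in the IMP1 precipitate. All 11 mesenchymal markers were lower, with sums of 230 and 2.78 FPKM, and 6 of them, including DCN, LUM and ZEB2, were listed at 0 in the IMP1 precipitate. With the same FPKM sum those 6 could not turn, since rescaling leaves a 0 at 0. None of the other mesenchymal markers turned, while IRF9 of the interferon genes did. Of 11 blood cell markers 6 were in the table and 4 were lower, led by CD74 (305 FPKM in the IgG precipitate and 6.42 FPKM in the IMP1 precipitate), while the pan-leukocyte marker PTPRC had no row. None of the 6 endothelial markers had a row. The 13 luminal markers, by contrast, included 7 that were at least 2-fold higher and none that was lower, and all but TFF3, listed at 0 in the IgG precipitate, were above 0 in both libraries. Their summed FPKM was 823 in the IgG precipitate and 1920 in the IMP1 precipitate. The estrogen receptor gene ESR1, which marks the line as luminal, had 9.04 and 9.60 FPKM. Of 10 broadly expressed genes, 4 were lower and 3 were higher.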

How the data were processed

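RNA that coprecipitated with IMP1 antibody or with control IgG from T47D lysates was sequenced, 1 library per arm. The authors deposited 1 FPKM value per gene and library, and the labels name hg19. The aligner, the FPKM software and the annotation are not given in the sources used here. The deposited starts count from 0, and 1 was added. The authors' fold changes, p-values and q-values in the table, and their 3 lists of called genes, were not used. Values at or under 1e-05 were read as 0, which includes 346 values under it in the IMP1 library and 228 with IgG, none of them of the 8 genes. Above 0 were 17233 genes in the IMP1 library and 11283 with IgG.

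The log2 ratio of FPKM + 0.1 was computed for 18781 genes, and a gene was counted as lower or higher from 2-fold. With 1 library per arm no test was run. FPKM carry no depth, so no interval is given. Genes were matched by symbol, by an older symbol or by identifier, and where a symbol had 2 rows (CFB) the row whose identifier carries it was used. The genes and lists were chosen with earlier results of these data known. Named are the 8 genes, listed genes that reached 10 FPKM in either library, relatives, partners and the 5 genes nearest to LCN2 and to BIRC3, and some others (among them CSF1, CCL2, SERPINA3, IRAK1, IKBKB, CHUK, TNF, BCL3, NFKBIB, NFKBID, N4BP1, ZC3H12A, GADD45B, TNFAIP8, IRF9 and the neighbours) were chosen after their values were seen. Protein-coding classes and promoters are from RefSeq (GRCh38.p14). Alternatives were other pseudocounts, filters, rescalings, 4-fold and a simpler motif. The counting was tested on simulated data. Python 3.11.15, numpy 2.4.6, pandas 2.3.3 and matplotlib 3.10.9 were used.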

Additional observations from a re-analysis of the deposited data

How the results depend on the processing

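No replicate could be left out with 1 library per arm. No paired analysis was possible because each arm is a single library. The count of 8 lower genes was 7 with a pseudocount of 1, after rescaling to a median ratio of 1 (a log2 shift of 0.79) and after rescaling to the same sum without the 50 highest genes (0.57), 6 at 4-fold, and 4 with the same FPKM sum over all genes (1.88). None of the 8 was higher from 2-fold in any of these. The share of all genes was not computed for the rescalings. Their median log2 ratio, -3.28, was -3.04 with a pseudocount of 1, -3.30 with 0.01, -2.50 after rescaling to a median ratio of 1, -2.72 after rescaling to the same sum without the 50 highest genes and -1.43 with the same sum over all genes. On that last scale NFKB2 turned to 0.70. The log2 ratio of LCN2 lay between -8.71 and -6.82 and that of BIRC3 between -7.08 and -5.18 over pseudocounts and rescalings.

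The count of higher signalling components, 18, was 10 with a pseudocount of 1, 5 among genes above 0 in both libraries and 29 with the same sum, and the count of lower ones, 23, was 8 with the same sum and 13 at 4-fold. The count of higher response genes outside the 8, which was 5, was 2 with a pseudocount of 1, 3 among genes above 0 in both libraries, 3 when 0.5 FPKM was required in either library, 8 with the same sum and 2 at 4-fold, and the count of lower ones, 17, was 11 among genes above 0 in both. A simpler motif, GGGANNNNCC, was present in 6 of the 8 genes, against 37.6% of the genes of the table, and in 8 of their 13 windows, against 25.6% of all windows. Where the filter, scale or limit does not itself set the change, the cause was not tested. Depth limits what can be said of values near 0.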

Other observations

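The partners that bind the products of these genes were scarce in both libraries. SLC22A17, a receptor reported for LCN2, had 0.718 FPKM in the IMP1 precipitate and was listed at 0 in the IgG precipitate, and LRP2 (megalin), the large endocytic receptor of LCN2, had 0.00475 FPKM and was listed at 0 in the IgG precipitate. MMP9, the protease that LCN2 binds, had no row. Of the integrin chains that bind ICAM1, ITGAL had 0.153 FPKM in the IMP1 precipitate and 0.673 FPKM in the IgG precipitate, and ITGAM and ITGB2 had no row. Of the chemokine receptors, CXCR2, the receptor of CXCL1, had 0.349 FPKM in the IMP1 precipitate and 0.926 FPKM in the IgG precipitate, a direction that turned with the same FPKM sum in both libraries, while CXCR1 and CCR6, the receptor of CCL20, had no row.

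Neither CXCL1 nor CCL20 has a row among the expression values, but both hold a consensus match in their promoter windows, 79 bases before the start in each.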
